A study of Mus musculus with 6 samples.

Results

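The matrix metalloproteinases and their tissue inhibitors were examined in retinal RNA of mice that were exposed to bright light with or without minocycline. The genes were chosen by their symbols in the count table: the proteases Mmp2, Mmp3, Mmp9, Mmp12, Mmp14 and Mmp19, and the inhibitors Timp1, Timp2, Timp3 and Timp4. All 10 were present among the 23420 genes of the table. Control retinas came from animals without treatment. Light-exposed retinas were taken 4 days after 1 h of light at 10000 lux. The third group received the same light and, in addition, intraperitoneal minocycline at 45 mg/kg once a day for 4 days, with analysis at the same time point. Minocycline is a tetracycline antibiotic that also dampens microglial activation. Each group held 2 libraries, which the study calls biological replicates, and the number of animals behind a library was not stated. The sample labels give CD1 as the strain of all groups, whereas the study's methods describe adult albino BALB/cJ mice of both sexes, a brighter light and a longer course of injections. A vehicle injection was not stated for the sequenced controls or light-exposed mice, so that the injections and the drug cannot be told apart.

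Matrix metalloproteinases are zinc-dependent endopeptidases, most of them secreted as inactive precursors, which cleave collagens, laminins and other proteins of the extracellular matrix as well as chemokines and cell surface proteins. Timps are small secreted proteins that bind the active site of these proteases, and Timp3 stays bound to the matrix and also inhibits ADAM proteases. In the retina, this system acts on basement membranes around vessels, on Bruch's membrane below the pigment epithelium and on the matrix around photoreceptors, and microglia, Müller cells and pigment epithelium all contribute to it. Tetracyclines are known to inhibit the activity of metalloproteinases, which RNA counts do not measure.

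The libraries held 15205930 to 22856922 counts. Values are given as raw counts or as CPM, the usual counts relative to library size, after TMM scaling over the 6 libraries. A gene without counts in a library could hold up to 3 counts by chance, a limit of 0.131 to 0.214 CPM that covers counting error only. The summed level of 10 microglia and macrophage markers was 27.4 and 33.2 CPM in control retinas and 336 and 1136 CPM in light-exposed retinas. It was 56.2 CPM in minocycline A and 28.0 CPM in minocycline B, names used for the libraries since both deposited columns carry the header of replicate 1. Of 8 rod markers, the summed level was 74699 to 95492 CPM in controls and 39613 to 55801 CPM after light and 81843 to 87686 CPM with minocycline, with none at 0 in any group. In minocycline against light, 7 of the 8 had an unadjusted p under 0.05 upwards in edgeR and all 8 passed upwards in DESeq2, and the part of rods in the levels of the genes examined was not tested. The sum of 9 Müller cell markers was 1947 to 2896 CPM in control, 3608 to 4914 CPM after light and 2839 to 3735 CPM with minocycline. Markers of tissue outside the retina were high in the minocycline libraries, where 6 pigment cell markers summed to 239 and 1057 CPM, against 15.8 to 61.9 CPM in the other 4 libraries. Control 1 held 77778 counts of Xist and the other libraries 25 to 188, so that it alone had the pattern of female tissue. In whole retina, a larger number of cells of a type and more RNA per cell cannot be told apart.

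Light exposure was compared with control first, to ask which proteases and inhibitors differ in the degenerating retina. Timp1, Mmp12, Mmp19 and Mmp14 rose, with a 23.1-fold change of the inhibitor Timp1 and a rise of the macrophage elastase Mmp12 from 0 counts. Of the 10 genes, 8 had enough counts to be tested and 4 of these passed upwards. The test was the quasi-likelihood F test of edgeR, and a gene passed when its p after Benjamini-Hochberg adjustment over all genes was under 0.05. All 8 log2 fold changes were above 0. Among all 14349 genes tested, 7.52% passed upwards and 3.8% downwards. With a further cutoff of 2 on the log2 scale, 3 of the 8 remained, Timp1, Mmp12 and Mmp19, where 2.89% of all tested genes passed upwards. The light-exposed and control libraries did not overlap in 7 of the 8 genes, all but Timp3, with the light-exposed ones above, a pattern found upwards in 30.1% of all tested genes. In Mmp9 this rests on control 1 and light-exposed replicate 1 being at the same level to 3 digits, 2.21 CPM. The median log2 fold change was 1.40 over the 5 tested proteases and 2.16 over the 3 tested inhibitors, beside 0.00253 over all genes tested.

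**Figure D1:**
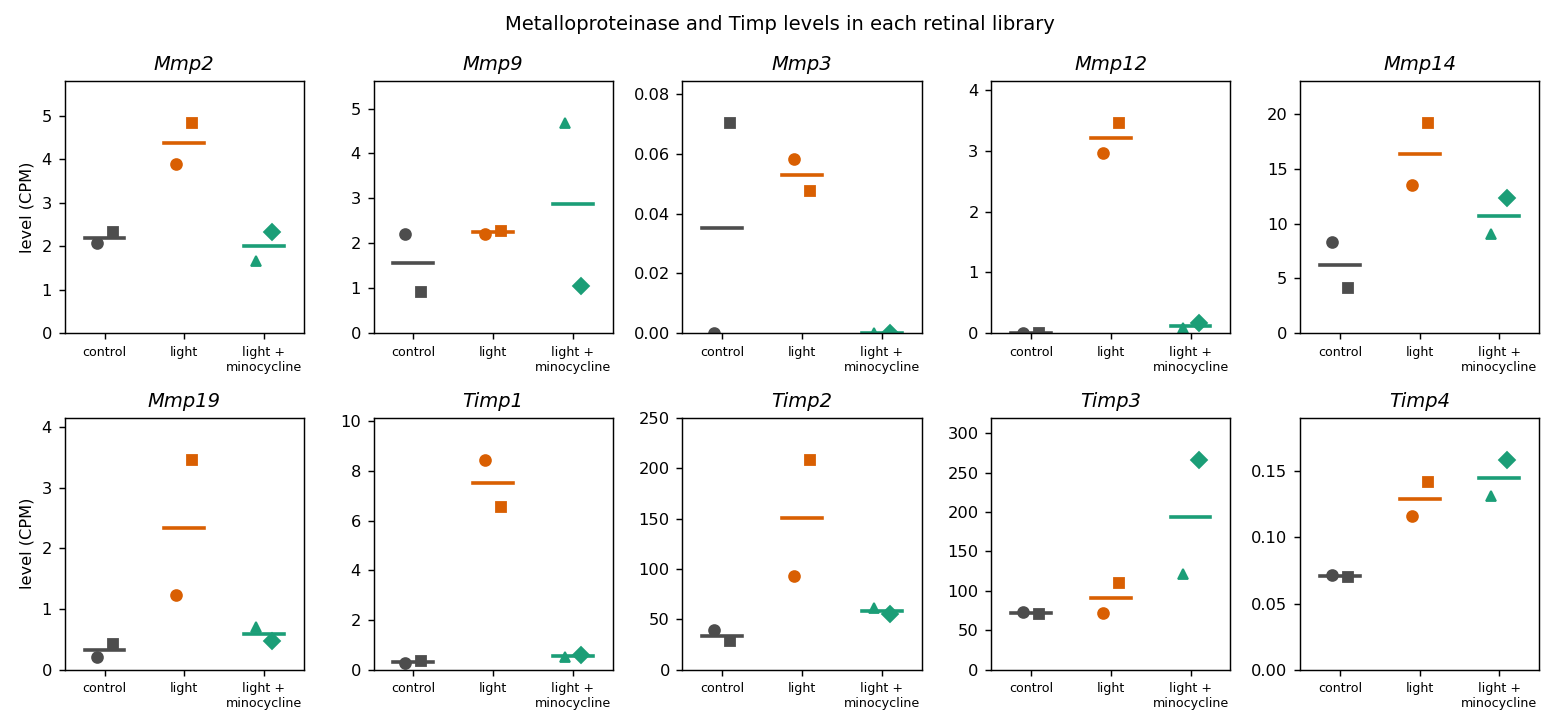
Level of each of the 10 genes in CPM (linear axes from 0, a separate scale for each gene) in every library, grouped as control, light and light with minocycline; circles and squares are replicates 1 and 2, triangles and diamonds the minocycline libraries A and B, and bars the mean of a group. Timp1 and Mmp12 were high in the light-exposed libraries and low in the other 4, whereas Timp3 was highest in the minocycline libraries.

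Timp1, the inducible inhibitor of the family, was counted 4 and 5 times in the control libraries. The light-exposed libraries held 145 and 138 counts of it, and the minocycline libraries 12 and 11. The levels were 0.285 and 0.351 CPM in control, 8.44 and 6.54 CPM after light and 0.525 and 0.582 CPM with minocycline. The 3 groups did not overlap, and both light-exposed replicates stood far above every other library. Timp1 was 23.1-fold higher after light than in control (log2 fold change 4.53 ± 0.45 SE, n = 2 per group, adjusted p = 0.00134, edgeR). Without control 1, the library with the female pattern, the log2 fold change was 4.38 (adjusted p = 0.0624, edgeR), and 4 genes of the whole table passed in that fit. It lies on chromosome X (chrX:20870166-20874735, GRCm38) inside the synapsin gene Syn1 on the opposite strand, with 0 exon bases shared in the annotation. Syn1 had 476 and 277 counts in control, 556 and 576 after light and 1187 and 395 with minocycline, and it did not pass the test in either direction. The strand setting of the counting was not stated.

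Mmp12, an elastase made chiefly by macrophages (chr9:7344381-7369499), was listed at 0 in both controls. It had 51 and 73 counts after light and 2 and 3 counts with minocycline. The light-exposed replicates held 2.97 and 3.46 CPM, and no other library passed 0.159 CPM. Against the limit of 3 counts per library, Mmp12 was at least 15.1-fold higher after light than in control (adjusted p = 0.00348, edgeR), and at least 14.0-fold or 16.3-fold with only replicate 1 or only replicate 2. Without control 1 its adjusted p was 0.0624 as well (edgeR). Of its 7237 exon bases, 157 are shared with Mmp1b on the opposite strand, which had 0 counts in every library.

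Mmp14, the membrane-type protease that activates the precursor of Mmp2 together with Timp2 (chr14:54431612-54445364), had the highest level per transcript length of the 6 proteases. It was at 8.35 and 4.15 CPM in control, 13.6 and 19.2 CPM after light, and 9.05 and 12.4 CPM with minocycline. The light-exposed libraries were the highest and did not overlap with either other group. Mmp14 was 2.64-fold higher after light (log2 fold change 1.40 ± 0.34 SE, adjusted p = 0.0303, edgeR). The log2 fold change was 1.98 without control 1 (adjusted p = 0.0624), 0.98 without control 2 (adjusted p = 0.141) and 1.13 without light-exposed replicate 2 (adjusted p = 0.0681, all in edgeR), so that the gene did not pass in these fits. Without control 1 the fold was larger, and 4 genes of the whole table passed.

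Mmp19, a secreted protease with broad basement membrane substrates (chr10:128790910-128800824), had 3 and 6 counts in control, 21 and 73 after light and 16 and 9 with minocycline. Light-exposed replicate 2 held 3.46 CPM and replicate 1 held 1.22 CPM, both above the 0.214 to 0.700 CPM of the other 4 libraries. Mmp19 was 7.33-fold higher after light than in control (log2 fold change 2.87 ± 0.66 SE, adjusted p = 0.0246, edgeR). Without replicate 2 of the light group the log2 fold change was 1.92 (adjusted p = 0.271, edgeR). It was 2.46 without control 1 (adjusted p = 0.145) and 3.42 without control 2 (adjusted p = 0.142, edgeR), where the gene did not pass either. It shares 789 of 3533 exon bases with Tmem198b on the opposite strand, which had 235 and 260 counts in control and 231 and 358 after light and did not pass the test.

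The gelatinases, which cleave denatured collagen and basement membrane collagen, did not pass the test with TMM scaling. Mmp2 (chr8:92827291-92853420) was at 2.07 and 2.32 CPM in control and at 3.90 and 4.83 CPM after light, without overlap (log2 fold change 1.00 ± 0.36 SE, adjusted p = 0.0916, edgeR), and passed with total library size (adjusted p = 0.0489, edgeR). Mmp9, known as the gelatinase of neutrophils and other myeloid cells (chr2:164940780-164955850), was at 2.21 and 0.914 CPM in control and at 2.21 and 2.27 CPM after light (log2 fold change 0.53 ± 0.46 SE, adjusted p = 0.485, edgeR). This value was 1.29 without control 1 and 0.026 without control 2. The spread between the controls of Mmp9 was wider than the distance of control 1 from the light-exposed libraries. The stromelysin Mmp3 (chr9:7445822-7455975) had at most 1 count in a library and was not tested, so that a change was not detectable at this depth.

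Timp2, which inhibits the gelatinases and takes part in the activation of Mmp2 at the cell surface (chr11:118301069-118355740), was at 39.7 and 28.1 CPM in control and at 93.4 and 208 CPM after light. Both light-exposed libraries were above the controls, and replicate 2 held 2.23 times the level of replicate 1. The log2 fold change was 2.16 ± 0.49 SE (adjusted p = 0.0806, edgeR), and this gene passed in DESeq2 (adjusted p = 0.00526) and with all 6 libraries in one fit (adjusted p = 0.0328, edgeR). It did not pass without a filter (adjusted p = 0.213) or with a replicate block (adjusted p = 0.315, edgeR). The log2 fold change was 1.47 without light-exposed replicate 2 and 2.63 without replicate 1, in fits where the light group held 1 library. Timp3, the matrix-bound inhibitor whose human gene is mutated in Sorsby fundus dystrophy (chr10:86300372-86349506), was at 72.6 and 70.8 CPM in control and at 71.8 and 109 CPM after light. Light-exposed replicate 1 lay between the controls, and the log2 fold change was 0.35 ± 0.19 SE (adjusted p = 0.267, edgeR). Timp4 (chr6:115241892-115252205), which lies inside Syn2 on the opposite strand, had 1 to 3 counts in every library and was not tested.

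**Figure D2:**
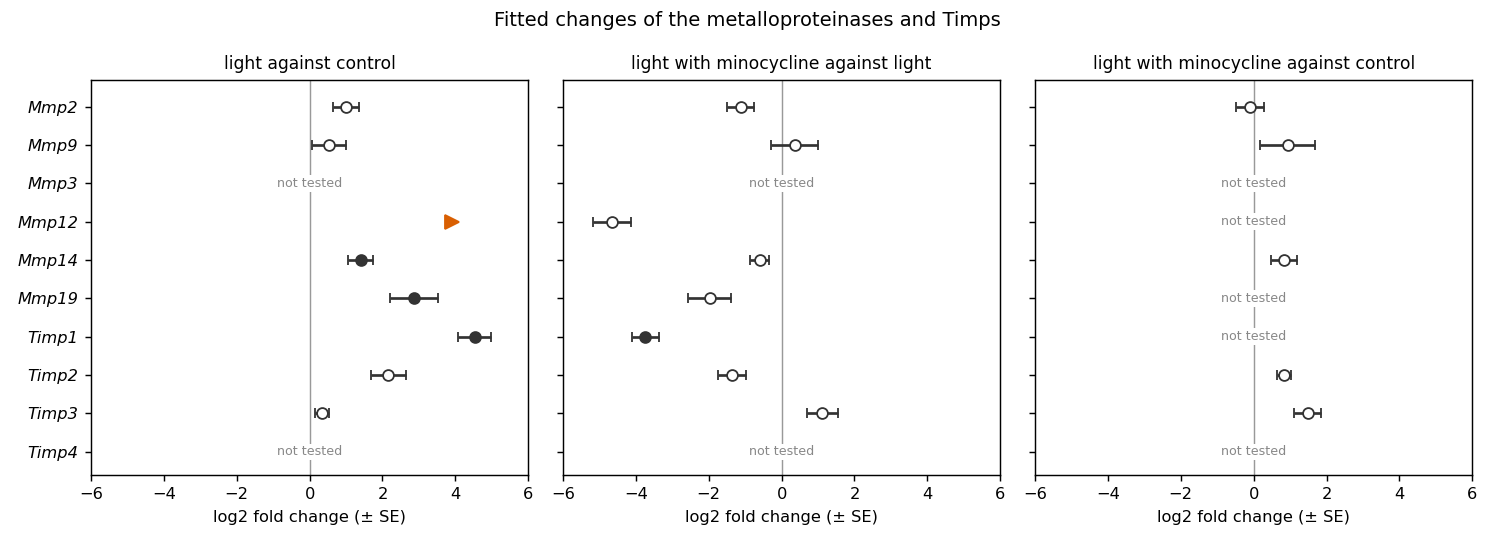
Log2 fold change and SE from edgeR's quasi-likelihood fit with n = 2 per group, for the 8, 8 and 5 of the 10 genes that were tested in the 3 comparisons, the others being marked as not tested; filled points passed at an adjusted p under 0.05, open points did not, and the triangle marks the lower bound of Mmp12 against controls at 0 counts. Timp1 is filled in both comparisons with the light group, at 4.53 and -3.74.

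Minocycline was compared with light alone to ask which of these genes differ in light-exposed retinas that received the drug. Timp1 fell, and Mmp12 was 27.1 times as high in light-exposed as in minocycline libraries without passing the test. Of the 8 genes tested, 1 passed downwards and 0 upwards in edgeR, with 5 downwards and 1 upwards at an unadjusted p under 0.05, and 0.0407% of all 14750 tested genes passed downwards and 0.0136% upwards, 6 and 2 genes. At an unadjusted p under 0.05 there were 3117 genes over the whole table, and DESeq2 passed 1201 genes after adjustment, 2.97% of its genes upwards and 4.71% downwards, among the latter Timp1, Mmp12 and Timp2. In 6 of the 8 genes, both minocycline libraries lay below both light-exposed libraries, a pattern found in 28.1% of all tested genes. In 1, Timp3, both lay above, as in 26.8% of all tested genes, and in Mmp9 the groups overlapped. The comparisons of light with control and of minocycline with light share the light-exposed libraries.

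Timp1 was 13.3-fold lower with minocycline than with light alone (log2 fold change -3.74 ± 0.38 SE, n = 2 per group, adjusted p = 0.0444, edgeR). It was lower in both minocycline libraries than in either light-exposed library. The call was close to the threshold: the adjusted p was 0.0604 with DESeq2 size factors, 0.0986 with total library size and 0.0646 without minocycline B, all in edgeR, while the log2 fold change stayed between -3.90 and -3.74 in these fits. Mmp12 had 124 counts over the light-exposed and 5 over the minocycline libraries, a ratio of 27.1 with an exact 95% interval of 11.3 to 84.8 that covers counting error only. Its adjusted p was 0.0515 (edgeR), and 2.79e-05 in DESeq2. Both minocycline libraries held at most 3 counts of it.

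Mmp19 had 16 and 9 counts with minocycline and 21 and 73 with light alone (log2 fold change -1.97 ± 0.59 SE, adjusted p = 0.132, edgeR). Without light-exposed replicate 2 the value was -1.05, and without replicate 1 it was -2.53. Mmp2 stood at 1.66 and 2.33 CPM in minocycline A and B, on either side of both controls, with a log2 fold change of -1.12 ± 0.37 SE (adjusted p = 0.147, edgeR). Timp2 was at 61.6 and 54.8 CPM with minocycline, below both light-exposed and above both control libraries. Its log2 fold change was -1.36 ± 0.38 SE (adjusted p = 0.137, edgeR). It was -0.69 without light-exposed replicate 2 and -1.84 without replicate 1. Mmp14 lay between the other groups, with a log2 fold change of -0.60 ± 0.26 SE (adjusted p = 0.248, edgeR). With all libraries none of these 4 genes passed in edgeR, and in all of them the minocycline libraries lay below the light-exposed ones.

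Timp3 and Mmp9 differed from the others. Timp3 was at 122 CPM in minocycline A and 266 CPM in minocycline B, above all 4 other libraries, which held 70.8 to 109 CPM. The log2 fold change was 1.12 ± 0.43 SE against light (adjusted p = 0.231) and 1.48 ± 0.37 SE against control (adjusted p = 0.356, edgeR), and against control it passed in DESeq2 (adjusted p = 0.000217). Minocycline B set the size of both values: without it the log2 fold change was 0.42 against light and 0.76 against control. Without minocycline A it was 1.93 against control. These fits leave 1 minocycline library, so that the gap between A and B does not enter them. Over the same libraries, 9 stromal markers summed to 56.7 CPM in minocycline A and 198 CPM in minocycline B against 18.3 to 24.8 CPM elsewhere, and 6 smooth muscle markers to 66.1 and 326 CPM against 5.28 to 18.1 CPM. Both sums were higher in minocycline B than in A, as Timp3 was, and their part in the level of Timp3 was not tested. Timp3 lies inside Syn3 on the opposite strand and shares 1733 of 8144 exon bases with it, and Syn3 had 151 and 122 counts in control, 232 and 308 after light and 331 and 153 with minocycline. Syn3 did not pass in any comparison.

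Mmp9 had 107 counts in minocycline A and 20 in minocycline B, or 4.68 and 1.06 CPM. The remaining libraries held 0.914 to 2.27 CPM, so that minocycline A was the highest and minocycline B lay between the controls. Against light alone the log2 fold change was 0.37 ± 0.64 SE (adjusted p = 0.794, edgeR), and it was -1.05 without minocycline A and 1.06 without minocycline B. Against control it was -0.52 without minocycline A and 1.58 without minocycline B. In minocycline A, 8 markers of corneal epithelium summed to 198 CPM and in minocycline B to 284 CPM, against 2.32 to 16.0 CPM in the other libraries. The part of these cells in the level of Mmp9 was not tested. Of 7 neutrophil markers in the table, Elane and Camp were at 0 in every library, and the sum was 0.0703 to 0.214 CPM in control, 0.815 to 1.37 CPM after light and 0.700 and 0.264 CPM in minocycline A and B.

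Minocycline-treated retinas were also compared with control, to ask which genes differ from the untreated retina. Of the 5 genes with enough counts, 0 passed the test in edgeR in either direction, and 1, Timp3, passed in DESeq2. In edgeR 3 had an unadjusted p under 0.05, beside 994 of all 14181 genes tested. Among all 14181 tested genes, 0.162% passed upwards and 0% downwards, and in DESeq2 1.09% upwards and 0.0267% downwards. Both minocycline libraries lay above both controls in Mmp14, Timp2 and Timp3, a pattern of 15.5% of all tested genes. The summed markers of stroma, smooth muscle and corneal epithelium were also higher in both minocycline libraries than in both controls. Their part in these levels was not tested. The log2 fold change was 0.82 ± 0.36 SE for Mmp14 (adjusted p = 0.707, edgeR). It was 0.82 ± 0.19 SE for Timp2 (adjusted p = 0.199, edgeR). Mmp2 had a log2 fold change of -0.10 ± 0.38 SE (adjusted p = 0.939, edgeR), and the libraries overlapped. Timp1, Mmp12 and Mmp19 had too few counts in these 4 libraries for the main test. Timp1 was at 0.318 ± 0.0467 CPM in control and 0.553 ± 0.0404 CPM with minocycline (mean ± SD, n = 2), without overlap. These levels rest on 4 and 5 against 12 and 11 counts. Its log2 fold change was 0.81 in DESeq2 (adjusted p = 0.994) and 0.78 with all 6 libraries in one fit (adjusted p = 0.634, edgeR).

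Levels of the 10 genes examined were set side by side as CPM per kilobase of the longest annotated transcript. Outside this set, Mmp17 with a mean of 2.92 and Mmp24 with 2.04 stood above Mmp14 in control. In control retina, Timp3 stood first with a mean of 15.2, followed by Timp2 with 9.15, Mmp14 with 1.93, Mmp2 with 0.713, Mmp9 with 0.492, Timp1 with 0.361 and Mmp19 with 0.0934. Mmp2, Mmp9 and Timp1 were neighbours in this order, each closer to Mmp9 than the spread of Mmp9 itself, 0.289 (SD, n = 2). After light, Timp2 stood first with a mean of 40.7, followed by Timp3 with 19.2, Timp1 with 8.48, Mmp14 with 5.06, Mmp2 with 1.42, Mmp12 with 0.719, Mmp9 with 0.707 and Mmp19 with 0.688. The last 3 did not differ beyond their spread. Timp1 stood below Mmp2 in control and above it after light. Its place above Mmp14 depended on the length used: per kilobase of the median transcript length, the means after light were 8.73 for Timp1, 21.0 for Mmp14 and 4.34 for Mmp2. With the median length Timp1 in control, at 0.371, was also farther from Mmp9, at 1.97, than the spread of Mmp9, 1.16 (SD), and after light Mmp9, at 2.83, was farther from Mmp12, at 2.21, than the spread of either. With minocycline the order began as in control, with Timp3 at 41.1, Timp2 at 15.7 and Mmp14 at 3.31, and Timp1 was at 0.627.

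Of the summed level of the 4 Timps on this per-length scale, Timp3 made up 61.7% ± 4.97 (SD, n = 2) in control, 28.6% ± 2.65 after light and 69.2% ± 13.1 with minocycline. Timp2 made up 36.8% ± 5.34, 57.6% ± 10.2 and 29.6% ± 12.8, and Timp1 made up 1.48% ± 0.360, 13.8% ± 7.50 and 1.15% ± 0.330. In both light-exposed libraries the share of Timp3 was below, and that of Timp1 above, its value in all other libraries. With the median transcript length, the share of Timp1 was 0.732% in control, 8.06% after light and 0.561% with minocycline. These shares were not tested.

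**Figure D3:**
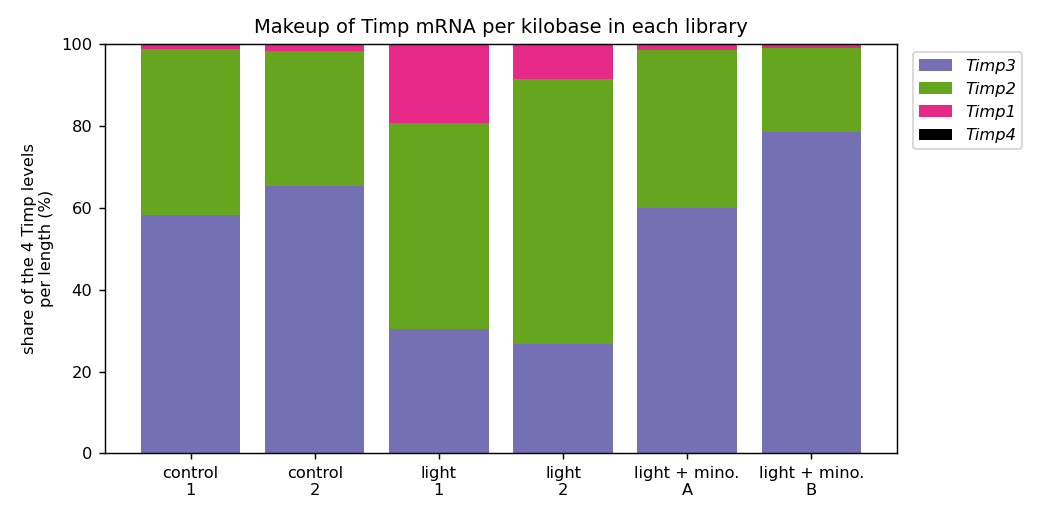
Share of each Timp gene in the summed per-length level of the 4 Timps, in percent, for each of the 6 libraries (stacked bars from 0 to 100). Timp3 made up the largest part in both control and both minocycline libraries, and Timp2 in both light-exposed libraries.

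The light-exposed replicates differed in the level of microglial markers, and the metalloproteinase genes did not follow this difference alike. The ratio of replicate 2 to replicate 1 was 1.98 to 3.88 over the 10 microglia and macrophage markers, with a median of 3.04. It was 2.83 for Mmp19 and 2.23 for Timp2, inside this range. The ratio was 1.03 for Mmp9, 1.16 for Mmp12, 1.24 for Mmp2, 1.41 for Mmp14 and 1.52 for Timp3, below every marker of the list. For Timp1 the ratio was 0.774. The 1079 genes that rose after light had passed a test that weighs the spread between these replicates, so that genes with unlike replicates passed less readily. Over these genes the median ratio was 1.59 (quartiles 1.31 and 2.25), and 30 genes, 2.78%, had a ratio below 1, as Timp1 did. This is a comparison of 1 pair of libraries and has no test, and the part of microglia or Müller cells in these levels was not tested.

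**Figure D4:**
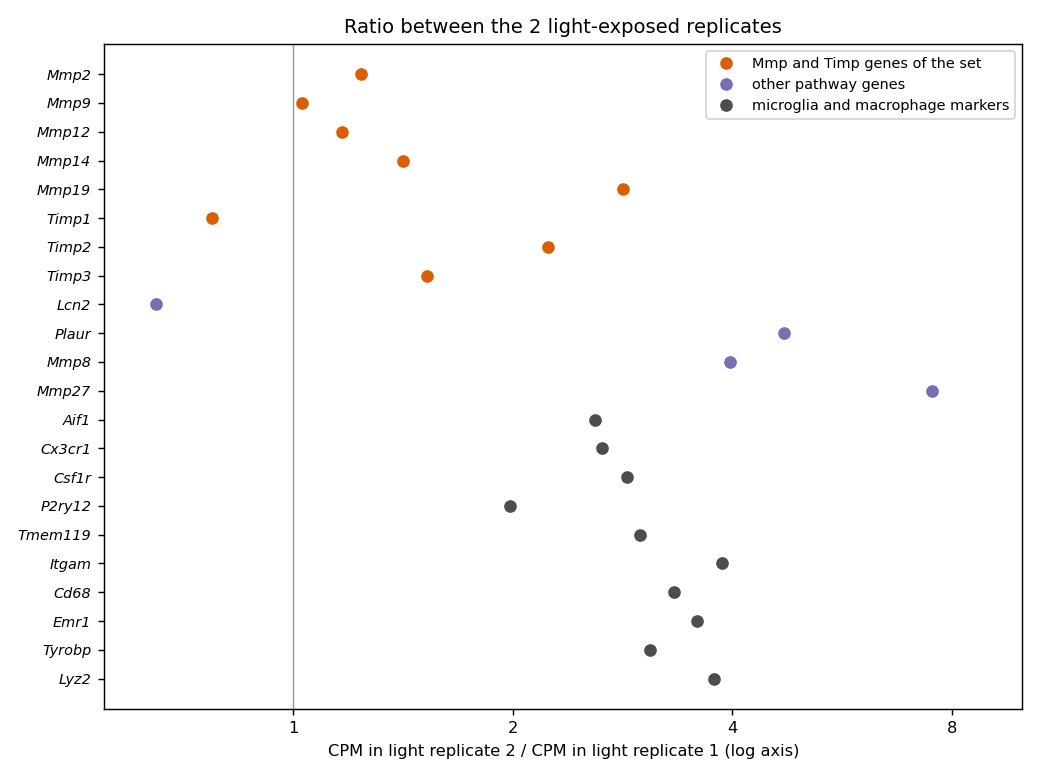
Ratio of the CPM in light-exposed replicate 2 to that in replicate 1 (log axis) for members of the gene set with more than 3 counts in both (orange), 4 other genes of the pathway (violet) and 10 microglia and macrophage markers (grey). Timp1 (0.774) and Lcn2 lie left of 1, Mmp12 (1.16) near it, and all markers at 1.98 or more.

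The genes whose levels ran most alike over the 6 libraries were listed as a description, by Pearson's r of log2 CPM among 14712 genes. For Timp1 these were Sgol1 (r = 0.993), Mmp12 (0.993), Ropn1l (0.991), Nmnat3 (0.988) and Ccr2 (0.987). For Mmp12 they were Timp1 (0.993), Dscr3 (0.992), Gpr160 (0.991), Il15ra (0.991) and H2-Q1 (0.988). Timp1 and Mmp12 were thus on each other's list. For Mmp14 the genes were Ccl2 (0.993), Rhoj (0.993), Fzd7 (0.991), Etfb (0.990) and Anxa1 (0.989), and for Mmp19 they were Fnbp1l (0.999), Ptgs1 (0.997), Aass (0.997), Irak2 (0.995) and Serpinb6a (0.994). These values rest on 6 points that share the differences in depth and marker content between the libraries.

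Mmp12 and Mmp3 belong to a cluster of 10 metalloproteinase genes on chromosome 9, from 7272514 to 7699585 in GRCm38 and 427.1 kb long, in the order Mmp13, Mmp12, Mmp1b, Mmp3, Mmp1a, Mmp10, Mmp8, Mmp27, Mmp20 and Mmp7. The cluster holds the classical collagenases, stromelysins and matrilysin. Besides Mmp12, the neutrophil collagenase Mmp8 had 8 and 39 counts in light-exposed replicates 1 and 2 and 0 in all 4 other libraries. Mmp27 had 4 and 37 counts in the same libraries and 0 in the others. Against the limit of 3 counts per library, Mmp8 was at least 5.45-fold higher after light than in control and Mmp27 at least 4.67-fold. With replicate 1 alone these bounds were 2.19 and 1.10. The collagenase Mmp13 had 3 and 0 counts in control and 3 and 15 after light, a ratio of 4.43 with an exact 95% interval of 1.29 to 23.5 that covers counting error only, and 15 of these counts came from replicate 2. Mmp10 had 1 count in 1 library, and Mmp1a, Mmp1b, Mmp7 and Mmp20 had 0 in all. Mmp8, Mmp27 and Mmp13 had too few counts for the test in edgeR. DESeq2 passed Mmp8 and Mmp27 upwards after light and downwards in minocycline against light.

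**Figure D5:**
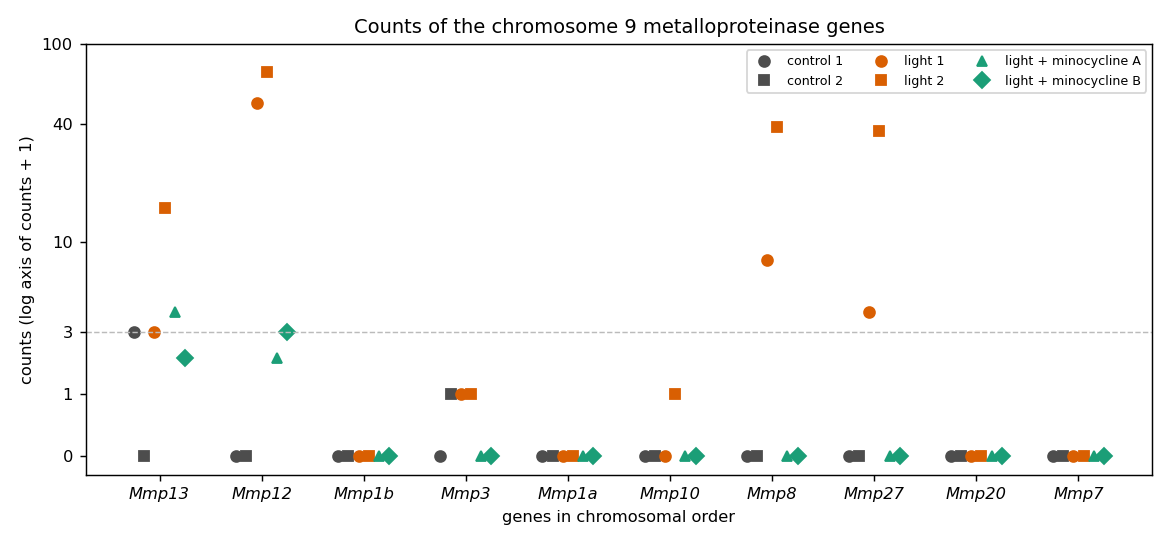
Raw counts in each library (log axis of counts + 1, with the axis labelled in counts) for the 10 metalloproteinase genes of the chromosome 9 cluster in chromosomal order; the dashed line marks the limit of 3 counts. Mmp12, Mmp8 and Mmp27 lie above this line in the light-exposed libraries and at or below it in the other 4.

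The promoters of this cluster are shown since its genes share a letter pattern that the choice of the genes did not use. AP-1, the dimer of Fos and Jun proteins, binds the letters TGANTCA, which were searched on both strands in the 250 bases before each RefSeq start (GRCm38.p6). The pattern was present in 8 of the 10 genes of the cluster, all but Mmp8 and Mmp27, at 35 to 95 bases before a start. It was present in 0 of the 12 other Mmp and Timp genes with a window, and in 6.75% of 32851 windows of all genes. These shares differ in unit, since a gene was counted if any of its windows held the pattern. Mmp12 and Mmp7 each have a further start without it. Mmp2, Mmp9, Mmp19, Mmp16 and Mmp17 had no window and were not searched. For 7 of the 10 genes examined a window was at hand, and among these Mmp12 and Mmp3 held the pattern. STAT proteins bind TTCNNNGAA, which was in 0 of these 7 and in 7.02% of all windows, and no window of the family held both patterns. Genes with the pattern included Mmp12, which rose after light, and Mmp20 and Mmp7, which had 0 counts in every library. In the 250 bases before the start given below, written 5′ to 3′ on the plus strand, capitals mark the AP-1 letters, which lie 44 bases before this start of Mmp12, 46 before Mmp3 and 35 before Mmp13. Mmp12 has a further start, with the window chr9:7344147-7344396, where they are not found, and the window of Timp1 does not hold them.
Mmp12, chr9:7347124-7347373: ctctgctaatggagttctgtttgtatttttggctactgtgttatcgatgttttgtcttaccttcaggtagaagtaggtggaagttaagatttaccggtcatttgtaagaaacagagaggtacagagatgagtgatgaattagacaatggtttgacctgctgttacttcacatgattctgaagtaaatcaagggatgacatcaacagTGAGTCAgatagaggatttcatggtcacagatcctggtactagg
Mmp3, chr9:7445572-7445821: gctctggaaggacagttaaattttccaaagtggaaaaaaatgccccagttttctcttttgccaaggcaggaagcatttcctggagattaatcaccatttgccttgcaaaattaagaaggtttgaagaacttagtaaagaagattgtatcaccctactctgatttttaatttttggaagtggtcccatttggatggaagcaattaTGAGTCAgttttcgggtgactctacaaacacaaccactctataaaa
Mmp13, chr9:7272264-7272513: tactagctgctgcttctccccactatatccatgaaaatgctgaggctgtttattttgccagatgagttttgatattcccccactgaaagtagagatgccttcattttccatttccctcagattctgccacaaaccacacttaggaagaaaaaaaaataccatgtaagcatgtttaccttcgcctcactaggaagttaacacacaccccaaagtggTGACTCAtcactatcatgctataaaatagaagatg
Timp1, chrX:20869916-20870165: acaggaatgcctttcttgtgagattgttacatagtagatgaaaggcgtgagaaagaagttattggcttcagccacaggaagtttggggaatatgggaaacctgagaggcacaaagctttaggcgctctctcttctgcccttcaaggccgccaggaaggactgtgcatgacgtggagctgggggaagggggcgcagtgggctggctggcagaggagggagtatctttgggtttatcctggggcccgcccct

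Other genes of the pathway were read from lists written with the same results known. Their counts after light stand beside the 7.52% of all tested genes that passed upwards in edgeR. Of the 17 other metalloproteinase genes of the table, 5 were tested in light against control and 0 passed in edgeR. At an unadjusted p under 0.05 there were 1 upwards and 1 downwards, beside 4144 of all 14349 genes tested. DESeq2, which uses another filter, passed 2 upwards, Mmp8 and Mmp27. Another 7 had at most 3 counts in all libraries of both groups. The tested genes had a median log2 fold change of 0.46. Mmp17, a membrane-bound protease, was at 23.8 and 13.7 CPM in control and 12.8 and 11.7 CPM after light (log2 fold change -0.61 ± 0.27 SE, adjusted p = 0.161, edgeR). Of 12 ADAM and ADAMTS proteases, relatives that Timp3 can inhibit, 1 passed: the aggrecanase Adamts5 was at 22.3 and 13.1 CPM in control and 29.6 and 43.3 CPM after light (log2 fold change 1.05 ± 0.28 SE, adjusted p = 0.0493, edgeR).

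Plasmin activates precursors of several metalloproteinases, and 2 of the 7 tested genes listed for plasminogen activation rose after light, where 7.52% of all tested genes did. The urokinase receptor gene Plaur had 2 and 4 counts in control, 14 and 81 after light and 5 and 2 with minocycline (log2 fold change after light 3.44 ± 0.89 SE, adjusted p = 0.0465, edgeR). The tissue activator Plat was at 10.6 and 13.2 CPM in control and 21.8 and 22.8 CPM after light (log2 fold change 0.91 ± 0.21 SE, adjusted p = 0.0232, edgeR). Urokinase itself, Plau, had 5 and 25 counts in control, 299 and 988 after light and 211 and 929 with minocycline, and did not pass after light in edgeR (adjusted p = 0.0697). DESeq2 passed Plau and Serpine2, an inhibitor of these activators, upwards after light. In Plau the minocycline and light-exposed libraries overlapped, in contrast to Timp1. Its level was 9.23 CPM in minocycline A and 49.1 CPM in minocycline B. The summed stromal and smooth muscle markers were also higher in minocycline B than in A, and their part in the level of Plau was not tested.

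Of 15 further inhibitors, receptors and partners, 14 were tested and 5 rose after light, beside 7.52% of all tested genes. Lcn2 is a lipocalin whose human counterpart forms a complex with MMP9. It was at 5.57 and 5.34 CPM in control and 57.8 and 37.4 CPM in light-exposed replicates 1 and 2. With minocycline it was at 5.55 and 3.86 CPM. Like Timp1, it was high in both light-exposed libraries, higher in replicate 1 than in replicate 2, and it fell with minocycline (log2 fold change -3.32 ± 0.28 SE, adjusted p = 0.0444, edgeR). Its change after light was 3.13 ± 0.24 SE on the log2 scale (adjusted p = 0.000312, edgeR). Cd44, a hyaluronan receptor that anchors Mmp9 and Mmp14 at the cell surface, changed by 1.50 ± 0.23 SE (adjusted p = 0.0108, edgeR). The protease trap A2m changed by 1.43 ± 0.21 SE (adjusted p = 0.00818, edgeR) and the endothelial receptor Kdr by 0.87 ± 0.17 SE (adjusted p = 0.0166, edgeR). The fifth was Itgb1. Reck, a membrane-anchored inhibitor, did not pass in edgeR in any comparison, and DESeq2 passed it downwards in minocycline against light.

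Among 20 matrix and basement membrane substrates, 4 rose after light: Tnc (log2 fold change 0.96), Fn1 (0.93), Sparc (0.83) and Agrn (0.76), with adjusted p of 0.0363, 0.0232, 0.0243 and 0.0451 in edgeR. The share over all tested genes was 7.52%. Tenascin C and fibronectin are glycoproteins of remodelled matrix, Sparc binds collagen, and agrin is a proteoglycan of basement membranes. The collagen IV genes Col4a1 and Col4a2 had log2 fold changes of 0.07 and 0.22 and did not pass. Spp1, osteopontin, a substrate of several metalloproteinases, had 65 and 65 counts in control, 6281 and 35124 after light and 325 and 394 with minocycline. Its change after light did not pass in edgeR (adjusted p = 0.061) and passed in DESeq2, and it passed with minocycline against control (log2 fold change 1.97 ± 0.28 SE, adjusted p = 0.0437, edgeR). In minocycline against light, Lcn2 was the one gene of these 5 lists that passed in edgeR, and DESeq2 passed 16 of the 73 genes listed, with Lamb1 higher and 15 lower, where 2.97% of all its genes passed upwards and 4.71% downwards. The lower ones were Mmp8, Mmp27, Serpine2, Plaur, 6 partners and 5 substrates, among these Fn1, Agrn and Spp1. In minocycline against control Spp1 was the one in edgeR, and DESeq2 passed Spp1, Cd63 and Lamb1 upwards. After light DESeq2 passed 22 genes of these lists, all upwards. Over all genes DESeq2 passed 7.68% upwards and 5.25% downwards after light. The medians of the lists after light were 0.60 for the ADAM and ADAMTS genes, 0.91 for plasminogen activation, 0.84 for the partners and 0.46 for the substrates on the log2 scale.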

How the data were processed

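Retinal mRNA of 6 libraries was sequenced as single reads from a stranded library kit. The authors aligned them with STAR to mm10 (GRCm38) and used RNA Express to assign them to genes, and a single table of counts per gene was deposited. The study's data statement calls these values normalized, but the deposited counts are whole numbers without scaling. The gene annotation, the tool versions and the strand setting of the counting are not given in the sources used here. No value column was left out (0 unused). Both minocycline columns share 1 header and are called A and B here.

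Pairs of groups were compared with edgeR 4.0.16 in R 4.3.3, with filterByExpr, TMM scaling, a robust quasi-likelihood fit and Benjamini-Hochberg adjustment over all genes tested. A gene passed at an adjusted p under 0.05. P-values set the difference between 2 groups against the spread between libraries of the same group, which the fit moderates over all genes. Where 1 library was left in a group, the spread came from the other group. The SE was taken from the log2 fold change and its F statistic. Groups with at most 3 counts per library were treated as at the limit of detection. Alternatives were DESeq2 1.42.0, other scaling, other filters, 1 fit of all 6 libraries, a replicate block, a stricter threshold, other transcript lengths and each library left out. Positions and lengths came from GENCODE for GRCm38, and promoters from RefSeq. In the pathway lists, every gene that passed was counted and at most 4 per list and comparison were named by the size of the change. The genes, lists and tests were chosen with earlier results of these data known. Genes described without having passed, such as Plau, Mmp17, Reck, Col4a1 and Spp1 after light, and the fifth gene Itgb1, were added after their values were seen. Listed genes that the text does not name enter its counts, and 1 further gene of the pathway was left out of the lists and is not reported here.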

Additional observations from a re-analysis of the deposited data

How the results depend on the processing

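In light against control, 4 genes passed. With at least 10 counts in every library 1 passed, since 5 genes were tested there, and with an adjusted p under 0.01 there were 2. Total library size gave 6, adding Timp2 and Mmp2, and DESeq2 and the fit with all 6 libraries gave 5 each, adding Timp2. Leaving out 1 library gave 0 to 5: 0 without control 1, where 4 genes of the whole table passed in place of 1624, 2 without control 2, 5 without light-exposed replicate 1 and 3 without replicate 2. The lone library of a group is then assumed to vary like the other group. The replicate block also gave 4, and the numbers did not pair the libraries (r = -0.00747 over 14349 genes between the differences of same-numbered replicates). For the other comparisons no paired analysis was possible because both minocycline columns carry the header of replicate 1. In minocycline against light, 1 gene passed, 3 in DESeq2, 0 with DESeq2 size factors, 0 with total library size, 2 without a filter, 2 with all 6 libraries in one fit and 0 at an adjusted p under 0.01. Leaving out 1 library gave 0 to 4, with 4 without light-exposed replicate 1, 2 without minocycline A and 0 without minocycline B. Over the whole table, 8 genes passed in this comparison and 0 to 1201 under the alternatives, so that counts near 0 here depend on the fit. In minocycline against control, 0 genes passed, 1 in DESeq2 (Timp3) and 1 without a filter (Timp2). Of all genes tested, 23 passed in this comparison, 167 in DESeq2 and 187 without a filter. Fits without 1 minocycline library leave 1 library in that group, so that only effect sizes are given for them. The log2 fold change of Timp3 was 1.93 without minocycline A and 0.76 without minocycline B. That of Timp2 was 0.73 and 0.86 in the same fits. Without minocycline A, the log2 fold change of Mmp9 was -1.05 against light and -0.52 against control, and that of Mmp2 against control was 0.12. With other libraries left out, the far ends of these ranges were 1.06, 1.69 and -0.40. The share of Timp3 among the Timps in control was 61.7%, and 69.5% with the median transcript length. Apart from fits with fewer genes or libraries, the cause was not tested. Of the values of single genes, 179 kept their side of the threshold and direction, 20 passed it and 11 lost it under an alternative, and 3 changed sign. With total library size, the median over all genes became 0.24 in light against control and -0.17 in minocycline against light, on the log2 scale. The counts limit Mmp3 and Timp4, which had at most 3 counts in a library.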
